A study of Homo sapiens with 4 samples.

Results

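The HOX genes of the 4 human clusters were examined in KM-H2, a cell line grown from a Hodgkin lymphoma. They were taken by name, as every gene called HOXA, HOXB, HOXC or HOXD plus a number, with antisense transcripts left out. The list holds 38 genes, and 28 of them had a probe set assigned to that gene alone, out of 19775 such genes in the series. The analysed genes are HOXA2, all 10 listed HOXB genes, all 9 HOXC genes and 8 of 9 HOXD genes. HOXA3, HOXA4, HOXA5, HOXA6, HOXA7, HOXA9, HOXA10, HOXA11, HOXA13 and HOXD3 were not analysed here. Nothing can therefore be said about most of the HOXA cluster.

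A pair of arrays came from cells treated with small interfering RNA against PTPN1, a tyrosine phosphatase that acts on JAK kinases, and the other pair from the non-silencing control. All 4 arrays hold total RNA of the same line, and the labels give no further treatment or time. The series calls the 2 arrays of a group technical replicates, so SDs, SEs and p-values measure the spread between arrays and not between cultures. Arrays are called by their group and by the replicate number, 1 or 2, of their title. The purpose of the comparison, as the title of the series gives it, is to find which transcripts differ when PTPN1 is reduced.

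HOX genes encode homeodomain transcription factors that give cells their position along the body axis. They lie in 4 clusters, and the paralog number of a gene tells its place in the cluster, from low numbers used near the head to high numbers used near the tail. Blood progenitors use several HOX genes, mostly of the HOXA and HOXB clusters, and switch them down as they mature. Polycomb proteins keep clusters silent, Trithorax and MLL proteins keep them active, and PBX and MEIS proteins bind DNA together with HOX proteins.

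Of the sequences in front of the HOX genes, that of HOXC4 and HOXC5 is shown because a single window serves both genes, and both were on. HOXC6 starts at the same base in the RefSeq gene table. HOXD4, the paralog of HOXC4 in a cluster that was not on, stands beside it. Each is the 250 bases before the start, from RefSeq on GRCh38.p14, plus strand, at chr12:54016638-54016887 for HOXC4 and HOXC5 and at chr2:176151300-176151549 for HOXD4. Capitals mark the motif CCAAT, the letters that the factor NF-Y binds, on either strand.
HOXC4 and HOXC5: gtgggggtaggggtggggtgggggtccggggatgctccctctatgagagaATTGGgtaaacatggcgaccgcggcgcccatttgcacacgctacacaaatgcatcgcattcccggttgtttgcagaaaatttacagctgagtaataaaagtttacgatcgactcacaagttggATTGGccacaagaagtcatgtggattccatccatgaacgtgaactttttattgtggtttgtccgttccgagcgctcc
HOXD4: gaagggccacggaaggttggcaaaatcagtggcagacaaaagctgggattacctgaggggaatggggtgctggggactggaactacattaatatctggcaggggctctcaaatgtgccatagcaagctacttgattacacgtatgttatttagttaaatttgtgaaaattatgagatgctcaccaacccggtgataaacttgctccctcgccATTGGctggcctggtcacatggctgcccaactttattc

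The window of HOXC4 and HOXC5 held CCAAT at 2 places, both on the minus strand, and that of HOXD4 at 1. The table had windows for 11 of the 28 analysed genes, 10 different ones, and CCAAT stood in 8 of these 10 against 32% of all 35116 windows. This motif was chosen after the sequences were seen. The letters TTCNNNGAA, which STAT proteins bind, were in 0 of the 10 windows and in 6.57% of all windows. TGATNNAT, the joint site of HOX and PBX proteins, was in 3 of 10 and in 6.47% of all. Those 3 were the windows of HOXA2, HOXB1 and HOXD11, which were not on. Of the 10 windows only that of HOXC4 and HOXC5 belonged to genes that were on. A match here is a description of letters and not of binding. The shared HOXC4 and HOXC5 window had 14 CG pairs and that of HOXD4 had 4. The other HOXD windows, of genes that were not on either, had from 16 (HOXD12) to 31 (HOXD1). HOXD4 thus does not stand for its cluster in this count.

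In the non-silencing cells 12 of the 28 HOX genes were on, 4 of the HOXB cluster and 8 of the HOXC cluster. A gene was called on where its brightest probe set read above the background level of both arrays. That level was the 95th percentile of 82 olfactory receptor genes, which lymphoid cells are not known to use, and it was 5.64 and 5.65 on the log2 scale. By the same rule 53.3% of all genes were on, against 42.9% of the HOX genes. A probe set's brightness depends on its own probes, so levels are not an order of abundance between genes.

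**Figure D1:**
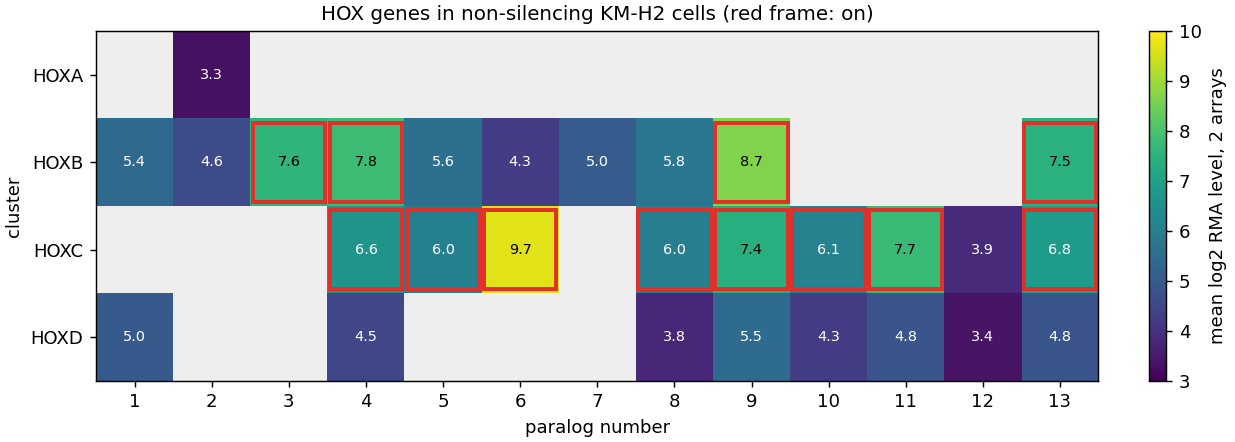
Mean log2 level of each analysed HOX gene over the 2 non-silencing arrays, by cluster (rows) and paralog number (columns). Red frames mark the 12 genes that were on, all in the HOXB and HOXC rows; grey cells hold no gene or a gene that was not analysed.

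The HOXC cluster was on along nearly its whole length. HOXC4, HOXC5, HOXC6, HOXC8, HOXC9, HOXC10, HOXC11 and HOXC13 were on, and HOXC12 was not. HOXC6, which helps pattern the thoracic body, read 9.88 and 9.52 on the non-silencing arrays, brighter than 92.7% of all probe sets. HOXC11, a posterior gene, read 7.93 and 7.54. HOXC9, which sets thoracic motor neuron identity, read 7.59 and 7.22. HOXC13, known for hair and nail growth, read 7.06 and 6.63, and HOXC4, which takes part in antibody class switching of B cells, read 6.602 and 6.67. These 5 genes lay at least 0.96 above the level on both arrays.

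HOXC10, HOXC5 and HOXC8 were nearer the level. HOXC10, a gene of the lumbar region and hindlimb, read 6.11 on both non-silencing arrays. HOXC5 read 6.17 and 5.84, and HOXC8, which patterns the lower cervical and thoracic region, read 6.001 and 6.003. With the 99th percentile of the olfactory receptor genes as the level these 3 genes were no longer on, and 9 HOX genes remained. HOXC12 read 3.90 and 3.83, in the lowest 19.1% of probe sets, although its neighbours on both sides were on. HOTAIR, the long non-coding RNA that lies between HOXC11 and HOXC12, was on at 6.88 and 6.603.

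Within the HOXB cluster the genes that were on lay in separate stretches. HOXB3 and HOXB4, which act in blood stem and progenitor cells, read 7.60 and 7.54, and 7.69 and 7.88. HOXB9 read 8.76 and 8.61. HOXB13, a factor of prostate and hindgut that lies apart from the rest of the cluster, read 7.79 and 7.18. Between HOXB4 and HOXB9 none of HOXB5, HOXB6, HOXB7 and HOXB8 was on, and neither were HOXB1 and HOXB2. HOXB8 lay just outside the rule, at 5.61 and 5.91, and HOXB5 read 5.40 and 5.79, so that both passed on the second array and not on the first. HOXC5 lay just inside it.

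HOXB3, HOXB9 and HOXB13 each had a second, dimmer probe set. The second probe set of HOXB3 read 5.46 and 5.36 on the non-silencing arrays, under the background level, that of HOXB9 6.34 and 6.15, and that of HOXB13 6.04 and 5.75. HOXB8 and HOXB5, near the level by their brightest probe sets, also had a second one. It read 4.05 and 4.10 for HOXB8 and 5.25 and 5.13 for HOXB5, under the level on both arrays. A single probe set stood for each of the 9 HOXC genes, so no second measurement bears on them. The probe sets of HOXC6 and HOXC13 are of the kind whose name warns that probes may match related transcripts. So are the brightest probe sets of HOXB5 and HOXB8.

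No HOXD gene was on. The 8 analysed HOXD genes had non-silencing means from 3.38 (HOXD12) to 5.46 (HOXD9), with a median of 4.66. HOXA2 read 3.29 and 3.35. By position, 1 of 5 analysed genes with paralog numbers 1 to 3 was on, 5 of 11 with numbers 4 to 8, and 6 of 12 with numbers 9 to 13. Position and cluster are mixed in these counts, since 0 HOXC genes have numbers 1 to 3. Within HOXB the counts were 1 of 3, 1 of 5 and 2 of 2, and within HOXC 4 of 4 and 4 of 5 in the last 2 groups. Of the 2 nearest measured genes on each side of the HOXD cluster, ATP5MC3 (13.55 and 13.24), LNPK (7.91 and 7.55) and MTX2 (10.97 and 11.03) were on and LINC01116 (3.76 and 3.94) was not. Beside the HOXC cluster, ATP5MC2 (12.77 and 12.63) and CALCOCO1 (6.22 and 5.87) were on at the HOXC13 end, and FLJ12825 and LOC100240734 were not on at the HOXC4 end.

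Every one of the 12 genes that were on in the non-silencing arrays was also on in the knockdown arrays, and no other HOX gene was. The pattern of clusters was therefore the same in both groups under this rule.

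**Figure D2:**
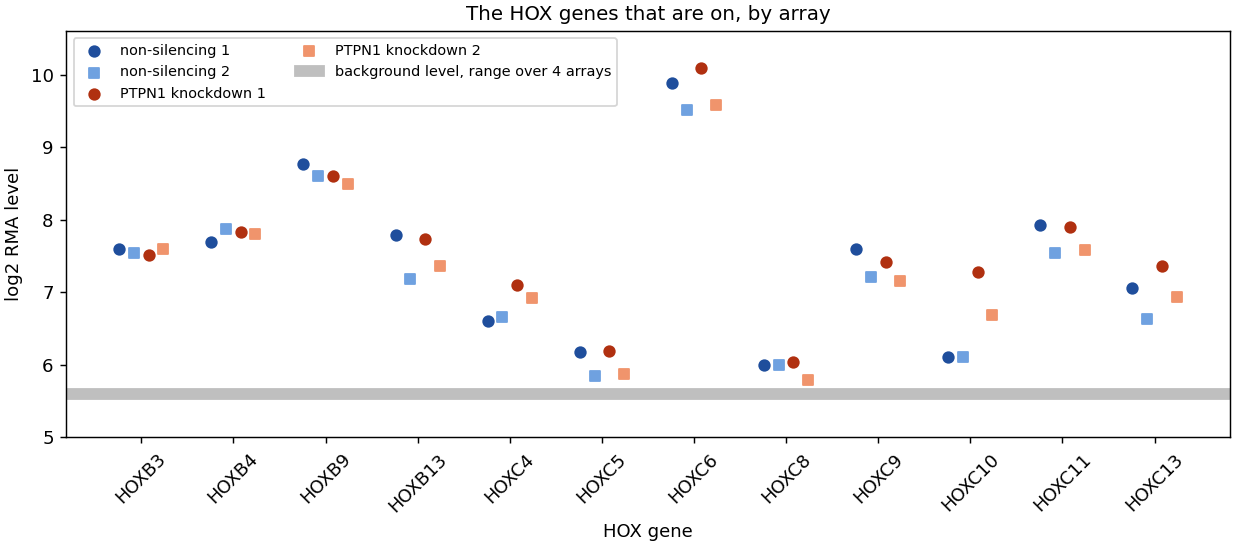
Log2 level (vertical axis) of the 12 HOX genes that were on (horizontal axis), with 1 point for each of the 4 arrays and the background level as a grey band. HOXC10 and HOXC4 have both knockdown points above both non-silencing points, HOXB9 has both below, and the remaining 9 genes overlap.

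PTPN1 itself served as the check of the labels. It read 8.16 and 8.40 on the non-silencing arrays and 7.002 and 7.36 on the knockdown arrays. The groups did not overlap. The log2 difference was -1.10 (moderated SE 0.18, n = 2 a group), or 0.468-fold, with a limma adjusted p of 0.769.

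HOXC10 and HOXC4 were higher on both knockdown arrays. Of the 28 HOX genes 13 had a log2 difference, knockdown minus non-silencing, above 0 and 15 below it. The median difference was -0.0041 over the 28 genes and -0.0066 over all genes, and over genes that were on it was 0.028 for the 12 HOX genes and 0.0093 for all. It has no test. In limma 0 of the 28 HOX genes passed an adjusted p under 0.05, against 0% of all 19775 genes, and their lowest adjusted p was 1. At an unadjusted limma p under 0.05 there were 2 HOX genes, HOXC10 and HOXC4 (7.14%), and 509 of all genes (2.57%). That count of HOX genes was 1 with quantile normalization, where 489 of all genes passed. With the replicate number as a block it was 4, where 2046 of all genes passed. An exact permutation test of 2 against 2 arrays cannot give a p below 0.333, so none was run.

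HOXC10 read 6.11 and 6.11 on the non-silencing arrays and 7.28 and 6.69 on the knockdown arrays. Both knockdown arrays lay above both controls, and the knockdown arrays differed from each other more than the controls did. The group means were 6.11 ± 0.0018 and 6.98 ± 0.42 (SD, n = 2 each). Its log2 difference was 0.87 (moderated SE 0.22, n = 2 a group), a 1.83-fold difference, with 1.17 within array number 1 and 0.57 within number 2. Its limma p was 0.011 before adjustment and 1 after it. Of the 10536 genes that were on, 0.199% had a difference at least as large in that direction.

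HOXC4 read 6.602 and 6.67 on the non-silencing arrays and 7.10 and 6.93 on the knockdown arrays. The groups did not overlap here either. The difference was 0.38 (SE 0.13), with 0.49 and 0.26 within the array numbers. Its limma p was 0.0362 before adjustment and 1 after it, and 2.12% of the genes that were on had a difference as large.

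HOXC5 and HOXC6, whose RefSeq start is that of HOXC4, differed by less. HOXC5 read 6.17 and 5.84 against 6.19 and 5.87, a difference of 0.021 (SE 0.19). HOXC6 read 9.88 and 9.52 against 10.10 and 9.58, a difference of 0.14 (SE 0.23) that was 0.22 and 0.061 within the numbers. For both genes the groups overlapped. Whether HOXC4 differed from HOXC5 and HOXC6 was not tested.

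HOXC13 read 7.06 and 6.63 on the non-silencing arrays and 7.37 and 6.93 on the knockdown arrays. The groups overlapped, since array 1 of each group read 0.43 above array 2, yet the difference was 0.31 and 0.30 within the array numbers. Its mean was 0.31 (SE 0.23) and its limma adjusted p was 1. HOXC12, which was not on, read 3.90 and 3.83 against 4.14 and 4.13, a difference of 0.27 (SE 0.12) with the groups apart. All its values lay over 1 log2 unit below the background level, where RMA compresses differences.

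The remaining HOXC genes lay near 0. HOXC11 differed by 0.011, with 7.91 and 7.58 on the knockdown arrays. HOXC9 read 7.42 and 7.16 there and differed by -0.11. HOXC8 read 6.05 and 5.79 and differed by -0.085, with opposite signs in the 2 numbers. Along the cluster the genes with positive differences in both numbers were HOXC4, HOXC5, HOXC6, HOXC10, HOXC12 and HOXC13, and they were interrupted by HOXC8, HOXC9 and HOXC11. HOTAIR differed by 0.083 (SE 0.17). On the flanks, ATP5MC2 differed by -0.11 and CALCOCO1 by -0.03 on the HOXC13 side.

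**Figure D3:**
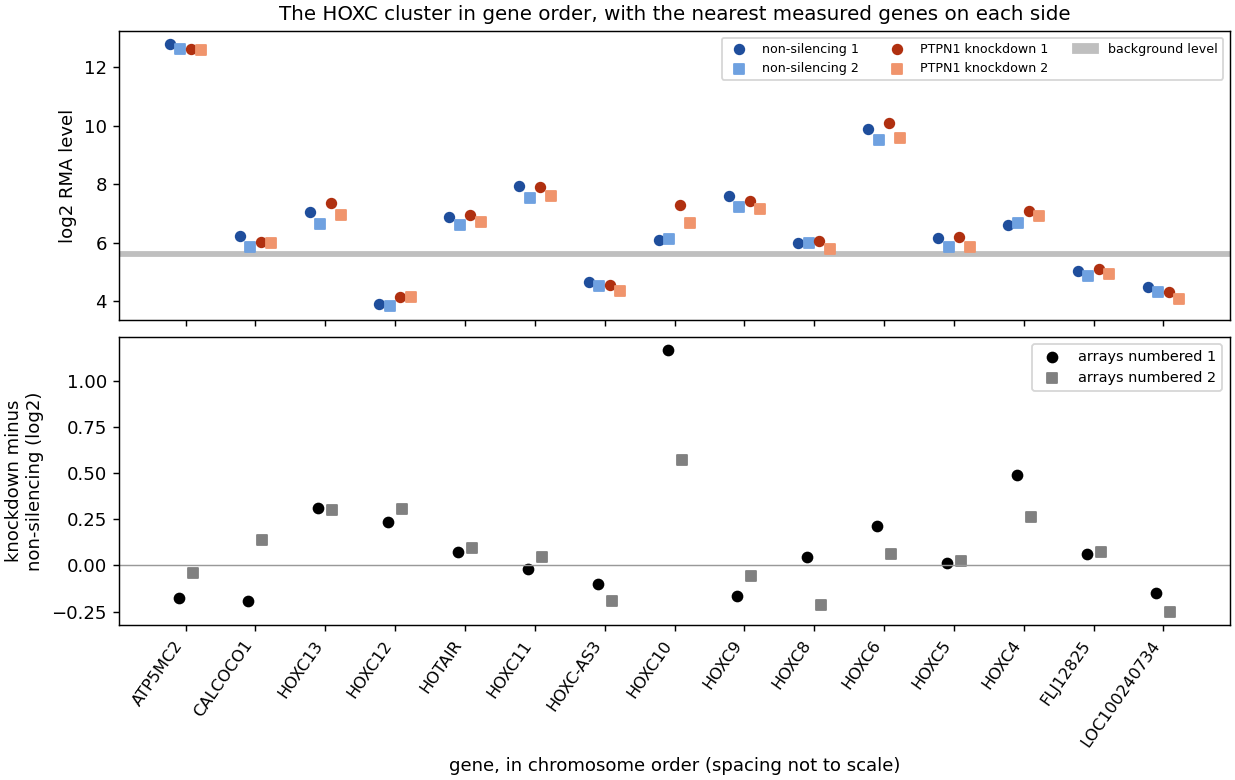
The HOXC cluster in chromosome order with the 2 nearest measured genes on each side. The upper panel plots the log2 level on each of the 4 arrays with the background level in grey, and the lower panel the log2 difference within each array number, where HOXC10 stands highest at 1.17 and 0.57.

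The HOXB genes that were on showed small differences in either direction. HOXB9 read 8.76 and 8.61 on the non-silencing arrays and 8.61 and 8.49 on the knockdown arrays. The lower control and the higher knockdown array both read 8.61 after rounding, the difference was -0.14 (SE 0.13), and the second probe set of the gene differed by 0.17. HOXB3 read 7.52 and 7.60 on the knockdown arrays, a difference of -0.0076 (SE 0.12). HOXB4 read 7.84 and 7.81 there, a difference of 0.035 (SE 0.13). HOXB13 read 7.73 and 7.37, a difference of 0.066 (SE 0.25). Signs were opposite in the 2 array numbers for HOXB3, HOXB4 and HOXB13.

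Among genes that were not on, HOXB6 read 4.38 and 4.19 against 4.03 and 4.07, a difference of -0.23 (SE 0.14). HOXD1 read 5.002 and 4.99 against 4.76 and 4.78, a difference of -0.23 (SE 0.12). HOXD4 differed by -0.10 and HOXB8 by 0.024. HOXD9, named after its values were seen, differed by 0.016 within array number 1 and by -0.49 within number 2. The other 10 of the 16 genes that were not on, apart from HOXC12, had differences from -0.071 (HOXD10) to 0.10 (HOXB1). Of these 16 genes HOXB5 and HOXB8 passed the background level on 1 non-silencing array and the others on none, so these values say little about transcripts.

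Counted over the 28 genes, the groups were apart with knockdown higher for 3 (HOXC4, HOXC10 and HOXC12), which is 10.7% against 12.4% of all genes. They were apart with knockdown lower for 4 (HOXB6, HOXB9, HOXD1 and HOXD4), or 14.3% against 15%. The difference had a positive sign in both array numbers for 7 genes, 25% against 27.8% of all genes, and a negative sign in both for 8, or 28.6% against 29.8%. These shares are near the background, so the counts give no result about the HOX genes as a whole. By cluster, the sign in both numbers was positive for 6 and negative for 1 of 9 HOXC genes, HOXC12 included, which was not on. It was positive for 1 and negative for 4 of 10 HOXB genes, and positive for 0 and negative for 3 of 8 HOXD genes.

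**Figure D4:**
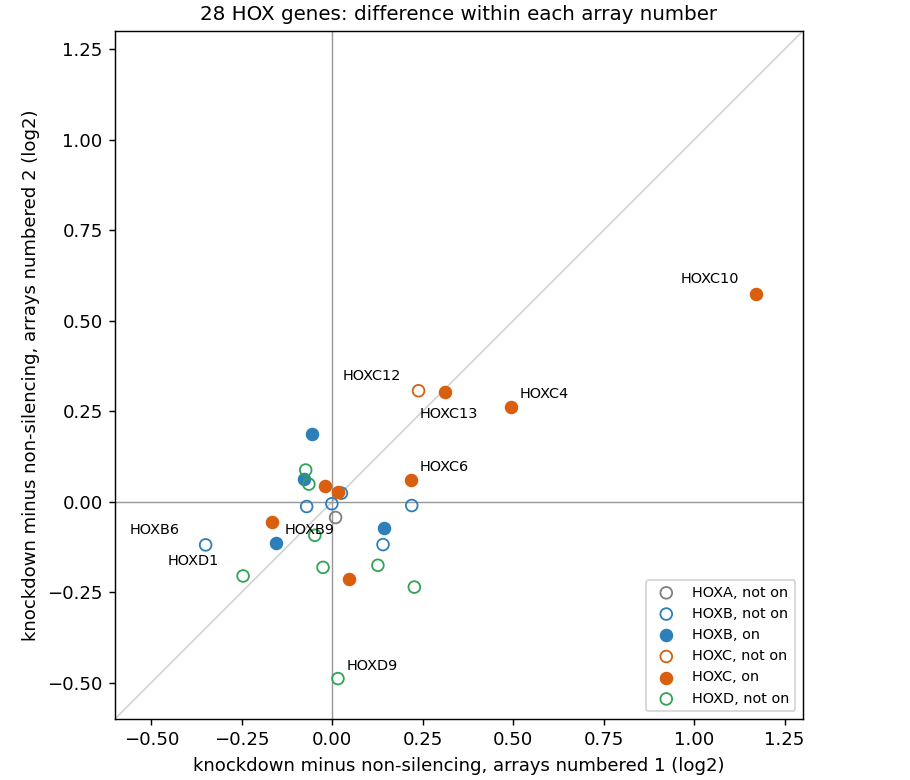
Log2 difference, knockdown minus non-silencing, for array number 1 (horizontal axis) and array number 2 (vertical axis) for the 28 HOX genes, coloured by cluster and filled where the gene was on; the grey diagonal marks equal differences. HOXC10 (1.17 and 0.57) stands apart from the rest, HOXC4 and HOXC13 follow, and most other genes lie within 0.25 of 0 in both numbers.

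Many of the HOX genes that were on differed more between array numbers than between groups. Of the 12 genes that were on, 7 read higher on array 1 than on array 2 in both groups, against 42.8% of all genes that were on, and for 6 of them (50%) the gap was at least 0.25 in both groups, against 16.1%. HOXB13 read 0.61 and 0.36 higher on array 1 in the 2 groups, HOXC6 0.37 and 0.52, HOXC11 0.39 and 0.32, and HOXC5 0.33 and 0.32. HOXC10 and HOXC4 did not share this gap in the control arrays, where array 1 minus array 2 was -0.0026 and -0.063, while on the knockdown arrays it was 0.60 and 0.17. This was not particular to them. HOXC8 had -0.0022 in the control and 0.26 in the knockdown arrays. HOXB3 (0.055 and -0.084) and HOXB4 (-0.18 and 0.032) did not share the gap either. The beta-actin controls, which show how evenly transcripts were copied, read higher at the 3' end than at the 5' end by 1.31 and 1.33 on array 1 of each group and by 0.972 and 0.969 on array 2. Its part in these gaps was not tested.

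The partners of HOX proteins were largely on. Of 8 measured TALE cofactor genes 6 were on and 0 passed the test. MEIS1, a MEIS protein that binds with HOX proteins in blood progenitors and leukaemias, read 9.16 and 9.19 on the non-silencing arrays and 8.68 and 8.92 on the knockdown arrays. Both knockdown arrays lay below both controls, and the difference was -0.38 (SE 0.14). PBX2 went the other way, from 8.64 and 8.35 to 8.86 and 8.83, a difference of 0.35 (SE 0.15). For both genes the limma adjusted p was 1.

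All 17 measured Polycomb genes and all 19 measured Trithorax and MLL genes were on, and 0 of them passed. The median differences were 0.0029 and -0.052. JARID2, an accessory subunit of the Polycomb complex that writes its repressive histone mark, differed by 0.29 (SE 0.14), with 0.28 and 0.31 within the numbers. CBX2, a Polycomb subunit that reads that mark, differed by -0.21 (SE 0.14), with both knockdown arrays below both controls. RBBP5, a core subunit of the MLL complexes, differed by 0.16 (SE 0.12). MLLT10, a partner of the DOT1L methylase, differed by -0.26 (SE 0.13).

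Among 13 measured genes that induce HOX genes or regulate that induction, 8 were on and 0 passed. RARA, a retinoic acid receptor, differed by 0.34 (SE 0.21). CYP26B1, an enzyme that degrades retinoic acid, differed by -0.32 (SE 0.21), with -0.32 and -0.31 within the numbers. For both genes the groups overlapped. RXRA, another retinoid receptor gene, went the other way from RARA, by -0.25 (SE 0.16) with the groups apart, and RXRB differed by 0.16 (SE 0.16). Of 13 measured transcripts of the clusters that are no HOX genes, HOTAIR, EVX1 and PRAC1 were on and 0 passed. PRAC1, which lies between HOXB9 and HOXB13 and is known from prostate and colon, read 8.73 and 9.61 on the non-silencing arrays against 8.02 and 8.94, a difference of -0.69 (SE 0.42). Its groups overlapped, since array 2 read 0.88 and 0.93 above array 1, while the difference was -0.71 and -0.67 within the numbers. HOXB13, its neighbour, had the gap between arrays in the other direction.

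The cell line's own markers were checked by the same rule. All 9 Hodgkin cell markers were on, among them TNFRSF8, which encodes CD30. Their summed linear level was 13380 to 13830 on the non-silencing and 15430 to 16270 on the knockdown arrays. This sum rests largely on ID2, the brightest of them, at 12.98 and 13.05 against 13.21 and 13.32 on the log2 scale. Of the 9 genes 8 had a difference above 0, against 9522 of all 19775 genes. The groups were apart with knockdown higher for 3 of the 9, against 12.4% of all genes. The largest difference was that of CCL17, 0.97 (SE 0.23), with the groups apart. It read 5.86 and 6.16 on the non-silencing arrays, near the background level, and 7.25 and 6.70 on the knockdown arrays. Only GATA3 was apart and lower, by -0.44. None passed the test. PAX5 was on among the 4 of 7 B cell markers, while MS4A1, which encodes CD20, was not. Of other cell types, 2 of 7 T and NK cell markers were on (CD3D and CD3G), 3 of 5 myeloid, 2 of 7 fibroblast (COL1A1 and FBN1), 1 of 4 endothelial and 1 of 5 epithelial markers. CD3D was bright, at 10.23 and 9.89 on the non-silencing arrays. The summed linear level of the fibroblast list was 2283 and 3518 on the non-silencing arrays and 1634 and 3162 on the knockdown arrays. COL1A2, COL3A1, DCN, LUM and PDGFRB of that list were not on. The part of these markers in the HOX levels was not tested. In RNA from a whole culture, fewer cells of a kind and less RNA per cell cannot be told apart.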

How the data were processed

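Total RNA of KM-H2 cells was measured on 4 Affymetrix arrays, 2 a group, with cRNA made by 2 cycles of amplification, per the labels' protocols. The authors deposited log2 values, and the submitters' processing notes name RMA as the tool; no version was found. RMA gives arrays nearly equal distributions, so a change in total RNA is not visible, and it compresses dim values.

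Of 54675 probe sets, 41097 had 1 gene symbol, 1801 several and 11777 none in the platform table. Symbols were looked up by gene identifier in RefSeq (GRCh38.p14). A gene took the value of its brightest probe set, by the mean of 4 arrays. The 3 probe sets that name HOXD3 also name other genes and were left out. No total count exists for arrays, whose number limits the precision.

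Groups were compared with limma 3.58.1 in R 4.3.3 (lmFit and eBayes, no covariates, two-sided, all 19775 genes), with Benjamini-Hochberg adjusted p-values and a threshold of 0.05. SEs are limma's moderated ones, and the fit was tested on simulated data. The simulated differences were larger than any HOX difference here and the noise was independent between arrays. That check therefore does not show whether differences of the size reported here can be found. HOX genes that were on in either group were named, with up to 3 of the others in each direction that had 1 sign in both array numbers. From other lists only genes that were on and had 1 sign in both array numbers could be named, from the 6 largest differences of a list. The HOX genes and all lists were chosen with earlier results of these data known. Promoter windows came from RefSeq tables. Alternatives covered normalization, the probe set, the background level, dim genes, the variance model, a replicate block and leaving out each array.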

Additional observations from a re-analysis of the deposited data

How the results depend on the processing

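In limma 0 genes passed, and 0 to 1 without 1 array, 1 with an intensity trend and 72 with the replicate number as a block. With the replicate block 0 of the 28 HOX genes passed, the lowest adjusted p being 0.154 for HOXC10. The labels tie a replicate number to no shared batch, so the main fit did not use it. Yet deviations of same-numbered arrays from their group means correlated at 0.648 over all genes. Arrays of the same number correlated at 0.9938 (number 1) and 0.9946 (number 2) across groups. Arrays of the same group correlated at 0.9913 (non-silencing) and 0.9894 (knockdown). What the same-numbered arrays share was not tested. No HOX gene passed under any setting. Of the 17 named differences, 8 kept their sign without each array in turn, among them HOXC10 (0.57 to 1.17), HOXC4 (0.29 to 0.46) and HOXC13 (0.089 to 0.52). The others ranged from -0.050 to 0.035 (HOXB3), -0.056 to 0.13 (HOXB4), -0.13 to 0.18 (HOXB8), -0.24 to 0.37 (HOXB13), -0.14 to 0.19 (HOXC5), -0.12 to 0.40 (HOXC6), -0.21 to 0.045 (HOXC8), -0.30 to 0.077 (HOXC9) and -0.18 to 0.21 (HOXC11). Signs also turned with quantile normalization for HOXB4 (-2.7e-05) and HOXC11 (-0.028), with centred arrays for HOXB3 (0.0104), and with probe sets averaged for HOXB3 (0.046) and HOXB9 (0.016).

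The median HOX difference was -0.086 to 0.047 without 1 array, 0.014 with centred arrays and 0.028 over the genes that were on. Without 1 array, 6 to 9 HOX genes were apart and higher and 7 to 10 apart and lower, since fewer arrays overlap less. With centred arrays 2 were apart and lower, as with averaged probe sets, where 4 had a negative sign in both numbers. The shares of all genes were not counted under these settings, so these counts give no result about the HOX genes. Signs in both numbers cannot be counted without 1 array. With the upper quartile of all probe sets as the background level 7 HOX genes were on, without HOXC4, HOXC5, HOXC8, HOXC10 and HOXC13; with their median 16 were on, and without non-silencing array 1 it was 14. Where no cause is given, the cause was not tested.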

Other observations

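Homeobox genes outside the HOX clusters were mostly not on. Of 32 measured genes 7 were on: DLX2, MSX1, MNX1, EN1, HHEX, NKX2-5 and TLX2. In limma 0 of them passed, with 1 gene (3.12%) at an unadjusted p under 0.05, near the 2.57% of all genes. DLX2, a gene of forebrain and jaw development, read 6.53 and 6.196 on the non-silencing arrays and 6.74 and 7.001 on the knockdown arrays, a difference of 0.51 (SE 0.18) with the groups apart. MSX1, which acts in limb and tooth buds, read 8.05 and 7.70 against 8.36 and 8.07, and MNX1, a gene of motor neurons and pancreas, read 9.02 and 8.69 against 9.35 and 8.95. Their differences were 0.34 (SE 0.19) and 0.29 (SE 0.20), with the groups apart for MSX1 and overlapping for MNX1. HHEX, a gene of liver and blood progenitors, differed by -0.11 (SE 0.12), with both knockdown arrays below both controls. Over the 32 genes the median difference was -0.011. The groups were apart with knockdown higher for 3 of the 32 genes, against 12.4% of all genes. They were apart with knockdown lower for 7, against 15% of all genes.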
